A study of Mus musculus with 14 samples.

Results

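Iron uptake, iron storage and haem breakdown were followed in the spleen of recombinant congenic mice through 4 genes: Tfrc (transferrin receptor), Hmox1 (haem oxygenase 1), Fth1 (ferritin heavy chain) and Ftl1 (ferritin light chain). They are 4 of 6286 genes with a single name that could be tested. Their members are the 8 probes whose single gene symbol in the platform annotation is one of these names, out of 15247 features on the array. Tfrc had 2 probes, Hmox1 had 1, Fth1 had 1 and Ftl1 had 4. All 8 passed the filter of at least 3 values per strain, as did 14605 probes in all. Spleen RNA of AcB61 mice (8 arrays) and of AcB55 mice (6 arrays) was hybridised to cDNA arrays with 2 channels, and A/J spleen RNA filled the second channel each time. Both strains are recombinant congenic, with an A/J genome into which C57BL/6 segments were bred, and both are known from the literature to carry a loss-of-function allele of Pklr, the red cell pyruvate kinase gene, with chronic anaemia. The labels give no age, sex, treatment or infection for any group, and they do not say whether arrays shared a mouse or an RNA pool.

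Cells take up iron when transferrin, the iron carrier of plasma, binds the transferrin receptor and is drawn in by endocytosis. Red cell precursors, which need iron for haem, and dividing cells carry much of this receptor. Iron that is not used is held in the ferritin shell, in which the heavy chain oxidises iron and the light chain helps to build the mineral core. In the spleen, macrophages of the red pulp take up old red cells, and haem oxygenase 1 opens the haem ring and frees its iron. The iron regulatory proteins bind the messenger RNAs of Tfrc, Fth1 and Ftl1 when iron is scarce. Binding stabilises that of the transferrin receptor and blocks translation of both ferritin chains. Transcription of Hmox1 is known to be held down by Bach1, which haem inactivates, and driven by Nrf2, the product of Nfe2l2.

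Values are log2 ratios to A/J, given as mean ± SD over arrays, with n = 8 for AcB61 and n = 6 for AcB55 unless another n is given. A positive value is likely higher in the strain, because the labels list the strain first (channel 1) and A/J second (channel 2) throughout, and the log base was taken as 2. The dye of each channel is not given. A dye effect on a probe therefore cannot be told apart from a difference to A/J. Passing the test means an adjusted p under 0.05 in limma after Benjamini-Hochberg adjustment over all 14605 probes. No A/J RNA was set against A/J RNA, and whether the arrays shared A/J RNA is not given. The spread among A/J mice may therefore be missing from these tests, and where arrays share RNA the p-values measure only technical spread. Each array held 14197 to 14588 values, the signal strength of the spots was not used here, and the number of arrays limits the precision. Within AcB61, replicates 2, 6 and 8 correlated with each other at r = 0.79 to 0.83 over all features and replicates 3, 5 and 7 at 0.70 to 0.80. Between these sets r was only -0.09 to 0.15, so calls were also run without each of them.

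The promoter regions below carry the genes of iron uptake and storage, which moved in the same direction in AcB61. They run 5′ to 3′ on the strand of the gene, from RefSeq with build GRCm38.p6, and 1 window holding a TATAA run is shown for each gene. Capitals mark TATAA on the strand shown and ACGTG, the core of the hypoxia response element, on either strand.
Tfrc: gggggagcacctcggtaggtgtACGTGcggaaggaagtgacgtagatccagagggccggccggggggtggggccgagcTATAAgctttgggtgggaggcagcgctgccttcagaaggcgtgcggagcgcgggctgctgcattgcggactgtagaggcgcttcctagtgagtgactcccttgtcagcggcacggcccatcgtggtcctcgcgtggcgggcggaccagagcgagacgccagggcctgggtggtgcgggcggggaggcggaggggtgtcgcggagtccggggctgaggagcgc
Fth1: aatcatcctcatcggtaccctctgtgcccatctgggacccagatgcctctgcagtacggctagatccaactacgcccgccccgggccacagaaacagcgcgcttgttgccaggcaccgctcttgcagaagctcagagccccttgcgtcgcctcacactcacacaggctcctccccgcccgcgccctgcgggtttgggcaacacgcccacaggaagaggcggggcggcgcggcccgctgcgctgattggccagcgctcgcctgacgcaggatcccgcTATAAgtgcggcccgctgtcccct
Ftl1: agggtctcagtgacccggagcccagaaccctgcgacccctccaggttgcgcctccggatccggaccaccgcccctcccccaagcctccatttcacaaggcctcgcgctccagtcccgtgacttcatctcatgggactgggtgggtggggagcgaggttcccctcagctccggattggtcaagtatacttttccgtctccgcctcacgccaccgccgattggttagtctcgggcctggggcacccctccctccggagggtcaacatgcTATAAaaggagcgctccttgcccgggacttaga
Tfrc lies at chr16:32608896-32632794 on the plus strand, and its window, chr16:32608872-32609171, spans both RefSeq starts, at 32608896 and 32609122. Fth1 lies at chr19:9980600-9985111 on the plus strand, and its window, chr19:9982396-9982695, belongs to the start at 9982646. The window of Ftl1, chr7:45459837-45460136, is on the minus strand at the start of the gene, which lies at chr7:45457944-45459886. Hmox1 lies at chr8:75093618-75100593, and no sequence is shown for it. TATAA stood in 17.5% of all 32851 windows of this length on the strand shown, and ACGTG in 19.6% on either strand. The windows shown were chosen for holding TATAA, so its presence in them is no result. The other window of Tfrc and that of Fth1 held none. Counted from the RefSeq start of its window, TATAA began 172 bases upstream in Tfrc, and 27 and 18 bases downstream in Fth1 and Ftl1. AGATAA (bound by GATA factors), TGACNNNGC (antioxidant response core) and TGCTGA (Maf recognition core) had no match in the 3 windows on either strand, against 11.2%, 12.4% and 19.5% of all windows.

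Tfrc messenger RNA was higher in both strains than in A/J with both of its probes, on all 14 arrays. The 2 probes, which come from different clones, put the strains in opposite order. Probe 5643 had a lowest log2 ratio of 0.200, a median of 0.480 and a highest of 0.963 in AcB61, against 0.506, 0.910 and 1.41 in AcB55. Its mean was 0.46 ± 0.24 in AcB61, a 1.38-fold rise (adjusted p = 0.00062), and 0.93 ± 0.30 in AcB55, a 1.91-fold rise (adjusted p = 2.21e-06). The lowest AcB55 array and the highest AcB61 array put the ranges into overlap, with AcB55 the higher strain.

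With probe 8221 AcB61 was the higher strain. Its log2 ratios ran from 0.478 over a median of 0.899 to 1.11 in AcB61, against 0.125, 0.399 and 0.986 in AcB55. The mean was 0.82 ± 0.21 in AcB61, a 1.77-fold rise (adjusted p = 1.68e-06), and 0.42 ± 0.31 in AcB55, a 1.33-fold rise (adjusted p = 0.00307). The ranges overlapped because AcB55 replicate 2 reached 0.986, far above the next AcB55 array at 0.436. Without AcB55 replicates 1 and 2 together, the rise of this probe in AcB55 was 0.27 and did not pass (adjusted p = 0.0549). In whole spleen RNA, fewer cells of a type and less RNA per cell cannot be told apart, and likewise more cells and more RNA per cell.

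**Figure D1:**
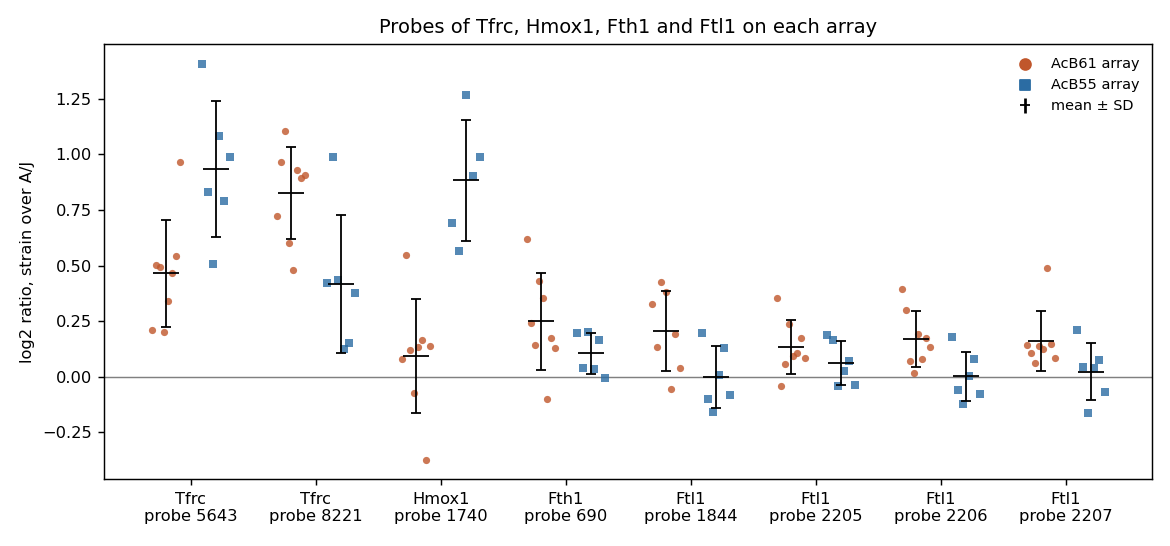
Log2 ratio of the strain to A/J (vertical axis) of each member probe on each array (points), AcB61 left of AcB55, with the mean and SD over arrays. Both Tfrc probes lie above 0 on all 14 arrays, the Hmox1 ranges of the strains do not overlap, and the ferritin probes stay near 0 in AcB55.

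The difference between the strains passed the test with each Tfrc probe, in opposite directions. Probe 5643 was lower in AcB61 than in AcB55 by a log2 difference of -0.47 ± 0.13 (SE, 95% interval -0.74 to -0.20, adjusted p = 0.0251). Probe 8221 was higher in AcB61 than in AcB55 by 0.41 ± 0.12 (SE, 95% interval 0.15 to 0.67, adjusted p = 0.0386). Both calls lay near the threshold and were lost without some single arrays, though the differences kept their direction. With any 1 array left out they were -0.55 to -0.37 for probe 5643 and 0.35 to 0.52 for probe 8221. The call of probe 5643 failed without any 1 of 5 arrays (AcB61 replicate 1 or 4, AcB55 replicate 1, 4 or 6), at adjusted p of 0.0502 to 0.0598. The call of probe 8221 failed without any 1 of 11 arrays (AcB61 replicate 1, 2, 3, 6, 7 or 8, AcB55 replicate 1, 3, 4, 5 or 6), at 0.0528 to 0.102.

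The disagreement of the probes could be read within each array, where both probes met the same RNA. Their spots can still differ, since Ftl1 probes 2206 and 2207, which share a clone, differed by up to 0.41 on an array. The part of such spot differences in the Tfrc gap was not tested. Probe 5643 minus probe 8221 was -0.36 ± 0.22 in AcB61, between -0.613 and 0.058, and above 0 on 1 of 8 arrays. In AcB55 the same difference was 0.52 ± 0.47, between -0.154 and 0.985, and above 0 on 5 of 6 arrays. The exceptions were AcB61 replicate 8 and AcB55 replicate 2. The strains differed by -0.88 in this quantity (exact two-sided permutation p = 0.00133 over 3003 arrangements, smallest possible 0.000333), a test chosen after the probes were seen to differ. Leaving out any 1 array gave -1.01 to -0.78 with exact p of 0.000777 to 0.0035.

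**Figure D2:**
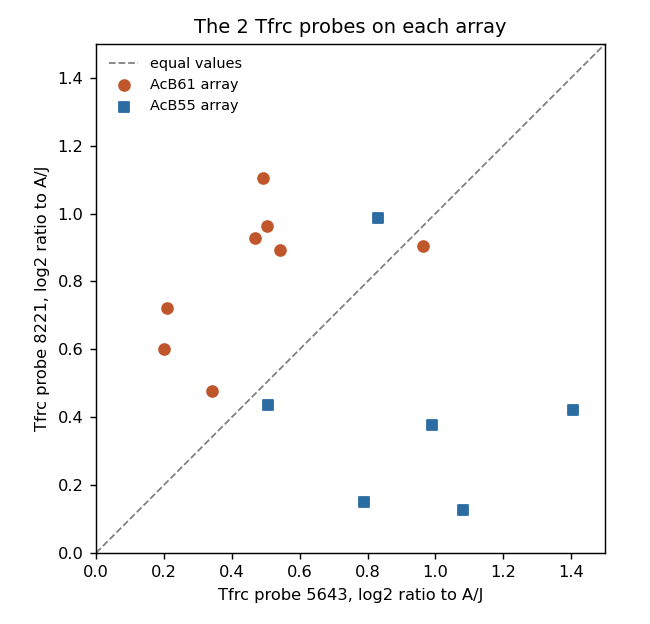
Log2 ratio to A/J of the 2 Tfrc probes on the same array, with a point for each array. Probe 5643 is on the horizontal axis and probe 8221 on the vertical axis, and the dashed line marks equal values. In 7 of 8 AcB61 arrays probe 8221 is the higher of the pair, and in 5 of 6 AcB55 arrays probe 5643 is.

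Averaging the 2 probes hid this difference. The averaged Tfrc ratio was 0.64 ± 0.20 in AcB61 (adjusted p = 3.35e-06) and 0.67 ± 0.20 in AcB55 (adjusted p = 7.21e-06). The strains then differed by -0.03 ± 0.10 (SE, adjusted p = 0.883). Among the 996 genes with exactly 2 tested probes, the median absolute difference between probes in AcB61 minus AcB55 was 0.147, and the 0.878 of Tfrc ranked 7. Only 4 of these genes, Tfrc included, had both probes past the threshold in opposite directions. Which stretch of the transcript each clone covers was not analysed here.

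Hmox1 messenger RNA was higher in AcB55 than in A/J and than in AcB61, and in AcB61 it did not pass the test against A/J. Its single probe, 1740, had a lowest log2 ratio of -0.372, a median of 0.128 and a highest of 0.548 in AcB61. In AcB55 it read 0.693 on replicate 1, 0.564 on replicate 3, 1.27 on replicate 4, 0.902 on replicate 5 and 0.989 on replicate 6, with no value on replicate 2. Every AcB55 array with a value lay above every AcB61 array, the closest being AcB55 replicate 3 and AcB61 replicate 2.

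The mean of Hmox1 was 0.09 ± 0.26 in AcB61 (95% interval -0.08 to 0.27, adjusted p = 0.497), above 0 on 6 of 8 arrays. In AcB55 it was 0.88 ± 0.27 (n = 5), a 1.84-fold rise (adjusted p = 1.06e-05). AcB61 was lower than AcB55 by a log2 difference of -0.79 ± 0.13 (SE, 95% interval -1.07 to -0.51, adjusted p = 0.00179), which is 1.73-fold. An exact two-sided permutation of the strain labels gave p = 0.000777, the smallest these 13 arrays allow. The exact two-sided test that flips the signs of the 5 AcB55 values cannot go below p = 0.0625. The 2 sets of AcB61 arrays both stayed far below AcB55, with means of 0.28 in replicates 2, 6 and 8 and -0.04 in replicates 3, 5 and 7.

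Of the known regulators of Hmox1, Nfe2l2 differed between the strains in the same direction with both of its probes. Nfe2l2 probe 5112 was 0.03 ± 0.14 in AcB61 (adjusted p = 0.794) and 0.44 ± 0.22 in AcB55 (adjusted p = 0.000182), a difference of -0.41 ± 0.09 (SE, adjusted p = 0.00978). Of the alternatives run, this difference failed only without the 2 AcB55 arrays whose titles carry the letter b (adjusted p = 0.0622). Nfe2l2 probe 11300 was -0.02 ± 0.10 in AcB61 (adjusted p = 0.865) and 0.24 ± 0.15 in AcB55 (adjusted p = 0.00577), the second of which failed without the arrays marked b (0.18, adjusted p = 0.0875). Its difference of -0.25 (adjusted p = 0.0383) failed without any 1 of 10 arrays (AcB61 replicate 1, 2, 4, 6 or 8, AcB55 replicate 2, 3, 4, 5 or 6), without the arrays marked b (-0.20, adjusted p = 0.17) and without AcB61 replicates 2, 6 and 8 (-0.20, adjusted p = 0.111). Bach1, the repressor, was 0.17 ± 0.12 in AcB61 (adjusted p = 0.0151) and 0.00 ± 0.12 in AcB55 (adjusted p = 0.98), and the strains differed by 0.18 (adjusted p = 0.134). Without AcB61 replicates 3, 5 and 7 the AcB61 value of Bach1 did not pass (0.13, adjusted p = 0.15). These are values of messenger RNA, and the part of either regulator in the Hmox1 difference was not tested.

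Among other genes of haem handling, Hmox2, the constitutive haem oxygenase, was -0.07 ± 0.13 in AcB61 and -0.03 ± 0.17 in AcB55 and passed no test. Slc48a1, which carries haem out of the phagolysosome in macrophages, rose in both strains, by 0.56 ± 0.36 in AcB61 (adjusted p = 0.000533) and 0.45 ± 0.28 in AcB55 (adjusted p = 0.0071), and the strains differed by 0.10 (adjusted p = 0.716). Slc48a1 did not pass in AcB55 without replicates 1 and 2 (0.35, adjusted p = 0.0998), and in AcB61 it was 0.33 without replicates 2, 6 and 8 (adjusted p = 0.0147). The biliverdin reductases Blvra and Blvrb, the next enzymes after haem oxygenase, had no single-symbol probe.

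**Figure D3:**
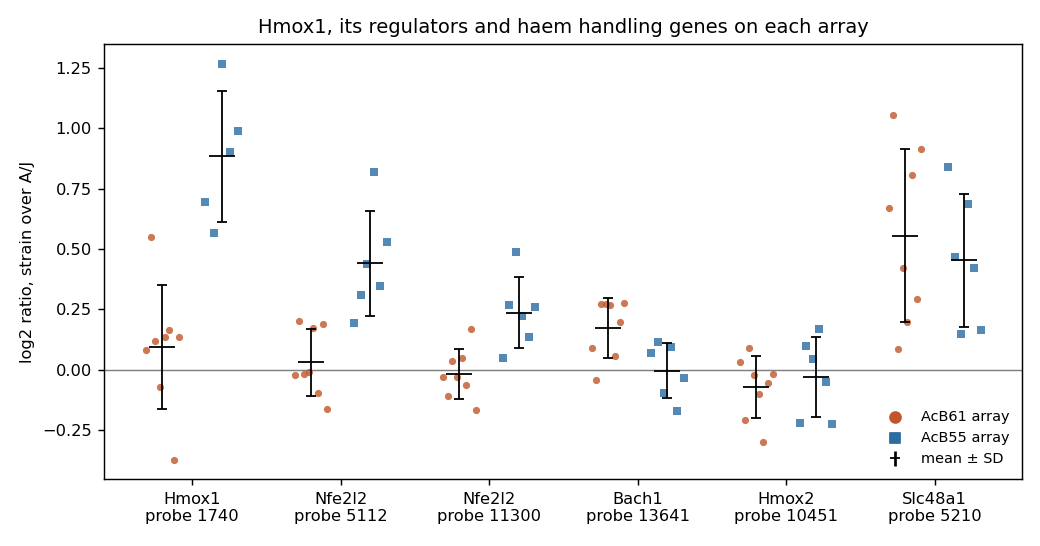
Log2 ratio to A/J of Hmox1 and of genes that control or neighbour its step, by array (points) with mean and SD, AcB61 left of AcB55. Hmox1 and both Nfe2l2 probes are higher in AcB55 than in AcB61, and Slc48a1 is above 0 on all arrays of both strains.

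Both ferritin chains showed small changes, which passed in AcB61 for 4 of 5 probes and in AcB55 for 0 of 5 with limma, where 23.4% of all probes passed in AcB61 and 21.4% in AcB55. At an unadjusted p under 0.05, AcB61 had 5 of 5, AcB55 still had 0 of 5, and the difference between the strains had 2 of 5. Fth1 probe 690 had a lowest log2 ratio of -0.098, a median of 0.206 and a highest of 0.617 in AcB61, against -0.005, 0.103 and 0.202 in AcB55. Its mean was 0.25 ± 0.22 in AcB61, a 1.19-fold rise (adjusted p = 0.00636), and 0.11 ± 0.09 in AcB55 (adjusted p = 0.349). AcB61 was above 0 on 7 of 8 arrays, with replicate 6 the exception, and AcB55 on 5 of 6. The strains differed by 0.14 (95% interval -0.05 to 0.34, adjusted p = 0.347), so a rise confined to AcB61 is not shown.

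The strain means of the 4 Ftl1 probes lay close to each other. Averaged, Ftl1 was 0.17 ± 0.06 in AcB61 (adjusted p = 0.00713) and 0.02 ± 0.11 in AcB55 (adjusted p = 0.832), with a difference of 0.14 ± 0.06 (SE, adjusted p = 0.147). In AcB61, probe 1844 averaged 0.21 ± 0.18 (n = 7, adjusted p = 0.0226), probe 2206 averaged 0.17 ± 0.13 (adjusted p = 0.0169) and probe 2207 averaged 0.16 ± 0.13 (adjusted p = 0.0294). Probe 2205 averaged 0.13 ± 0.12 in AcB61 and just missed the threshold (adjusted p = 0.0503). In AcB55 the means of the 4 probes were 0.00 ± 0.14, 0.06 ± 0.10, 0.00 ± 0.11 and 0.02 ± 0.13 for probes 1844, 2205, 2206 and 2207, with the lowest adjusted p at 0.503.

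Probes 2206 and 2207 were above 0 on all 8 AcB61 arrays, with lowest values of 0.018 and 0.061. The median absolute difference between 2 Ftl1 probes on an array was 0.030 to 0.055, against 0.461 for the Tfrc pair. In AcB61, however, the SD of these differences over arrays was 0.155 to 0.292 and the highest was 0.542, above the Ftl1 mean itself, where the SD of the Tfrc pair was 0.218. Probes 2205, 2206 and 2207 carry the same clone accession, so they are repeats of one sequence and not independent measurements. Each of the Ftl1 calls by probe in AcB61 was lost without 1 of 2 or 3 arrays: replicates 1, 3 or 4 for probe 1844, 1 or 2 for probe 2206 and 1, 4 or 6 for probe 2207, at adjusted p of 0.0505 to 0.0953. In the 2 sets of AcB61 arrays, probe 1844 averaged 0.04 in replicates 2, 6 and 8 and 0.31 in replicates 3, 5 and 7, and Fth1 averaged 0.09 and 0.22. Without replicates 2, 6 and 8, probe 1844 was 0.33 in AcB61 (adjusted p = 0.00234) and differed from AcB55 by 0.33 (adjusted p = 0.0171). RefSeq lists 2 pseudogenes named for each of Fth1 and Ftl1, and whether their transcripts add to these spots was not tested.

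Against A/J, 6 of 8 member probes rose and 0 fell in AcB61, where 23.4% of all probes passed in either direction and 10.5% rose. In AcB55, 3 of 8 rose and 0 fell, where 21.4% of all probes passed and 10.3% rose. The 6 in AcB61 are both Tfrc probes, Fth1 and 3 of the Ftl1 probes, which share clones as described, so they stand for 3 genes, and the 3 in AcB55 stand for 2 genes. Between the strains, AcB61 was higher with 1 probe and lower with 2, where 12.2% of all probes passed, 5.2% higher and 7.02% lower. The median of the 8 probes was 0.19 in AcB61, 0.08 in AcB55 and 0.14 for the difference, against medians over all probes of 0.00, 0.00 and 0.01. By size of change, Tfrc probe 8221 ranked 68 of 14605 in AcB61, and in AcB55 Tfrc probe 5643 ranked 64 and Hmox1 ranked 82.

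**Figure D4:**
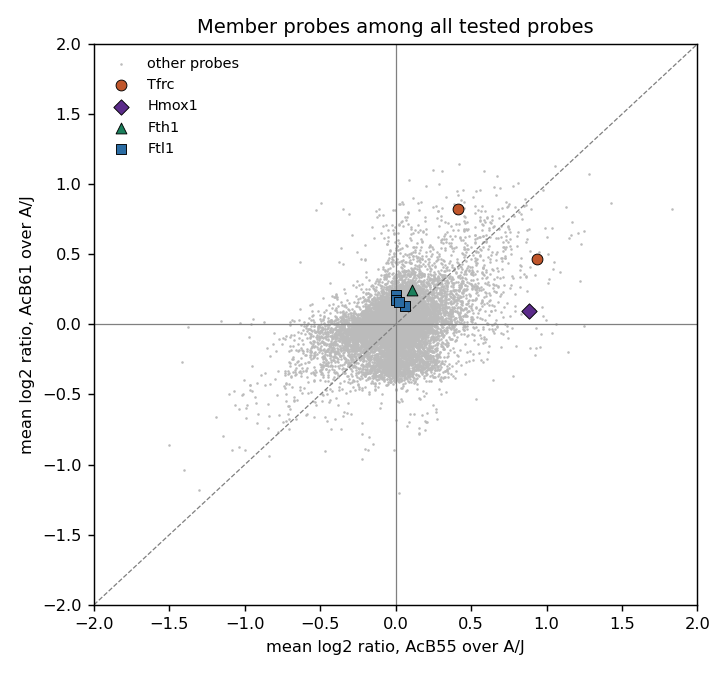
Mean log2 ratio to A/J of each tested probe, AcB61 on the vertical axis and AcB55 on the horizontal axis, with all 14605 probes in grey (1 lies outside the axes, which end at 2) and the 8 member probes coloured by gene. Hmox1 lies far to the right near the height of 0, the Tfrc probes lie on either side of the diagonal, and the ferritin probes lie close to the centre.

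Outside the members, 44 probes of 35 genes of iron handling were tested, and the highest mean ratios in AcB61 were those of Slc25a37, Lcn2 and Glrx5. For comparison with the counts of this list and those that follow, 10.5% of all probes rose and 12.9% fell in AcB61. In AcB55 10.3% of all probes rose and 11.1% fell, and between the strains 5.2% were higher in AcB61 and 7.02% lower. Of 8 probes of iron uptake and transport, 3 rose and 0 fell in AcB61, and 2 rose and 1 fell in AcB55. Slc25a37 (mitoferrin 1), which brings iron into the mitochondria of red cell precursors, rose with probe 13232 by 1.01 ± 0.33 in AcB61 (adjusted p = 5.46e-07) and 0.81 ± 0.20 in AcB55 (adjusted p = 1.64e-05). The strains differed by 0.20 with this probe (adjusted p = 0.36), and by 0.40 without AcB61 replicates 2, 6 and 8 (adjusted p = 0.0158). Slc25a37 probe 6860, in contrast, was 0.02 ± 0.11 in AcB61 (adjusted p = 0.864) and fell by 0.23 in AcB55 (SD 0.15, adjusted p = 0.00809), so its probes disagreed too. The AcB55 call of Slc25a37 probe 6860 failed without the arrays marked b (-0.19, adjusted p = 0.0635). The strain difference of Slc25a37 probe 6860, 0.25 (adjusted p = 0.046), failed without any 1 of 10 arrays, which are all but AcB61 replicates 2 and 6 and AcB55 replicates 2 and 3. It also failed for Slc25a37 with probes averaged (0.22) and without AcB61 replicates 3, 5 and 7 (0.23), AcB55 replicates 1 and 2 (0.25) or the arrays marked b (0.21), at adjusted p of 0.0751 to 0.139.

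Lcn2, which binds iron-carrying siderophores and is made by granulocytes, rose by 0.98 ± 0.44 in AcB61 (adjusted p = 0.000713). In AcB55 Lcn2 was 0.65 ± 0.81 (adjusted p = 0.0306), which failed without replicate 1 (adjusted p = 0.138), replicate 2 (0.41, adjusted p = 0.153) or both (0.14, adjusted p = 0.648). Without both, Lcn2 was higher in AcB61 than in AcB55 by 0.84 (adjusted p = 0.00917), against 0.33 with them (adjusted p = 0.481). S100a9, the granulocyte marker measured, rose in AcB61 by 1.10 ± 0.36 (0.735 to 1.72 by array, adjusted p = 0.000318). In AcB55 S100a9 was 1.48 and 1.94 on replicates 1 and 2 and -0.096 to 0.263 on the other arrays, and the part of granulocytes in the Lcn2 values was not tested. Snx3, which sorts the transferrin receptor back to the cell surface, was 0.21 ± 0.24 in AcB61 (adjusted p = 0.0441) and 0.05 in AcB55, and its AcB61 value moved with the array sets. It was 0.33 without replicates 3, 5 and 7 (adjusted p = 0.00699) and failed without replicates 2, 6 and 8 (0.05, adjusted p = 0.688), with AcB61 fitted alone (adjusted p = 0.0676), without the AcB55 arrays marked b (adjusted p = 0.0664) or without any 1 of 8 arrays (AcB61 replicate 1, 2, 6 or 8, AcB55 replicate 1, 3, 4 or 5).

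Iron storage and release, with 3 probes for Cp, Pcbp1 and Slc40a1, had 0 of 3 past the threshold with limma in either strain or between them, and likewise 0 of 3 at an unadjusted p under 0.05. Slc40a1 (ferroportin), the iron exporter of macrophages, was -0.12 ± 0.24 in AcB61 and -0.07 ± 0.24 in AcB55. Without AcB61 replicates 2, 6 and 8, Slc40a1 fell by 0.27 in AcB61 (adjusted p = 0.0199). Of 6 probes of haem and haemoglobin clearance and export, only Slc48a1 passed, in both strains.

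Iron sensing and hormones had 1 of 8 probes higher and 1 lower in AcB61, and 0 higher and 2 lower in AcB55. Aco1, iron regulatory protein 1, was 0.00 ± 0.13 in AcB61 and -0.07 ± 0.12 in AcB55 and passed no test. Smad4, which relays bone morphogenetic protein signals to hepcidin in liver, fell with probe 142 by 0.34 in AcB61 (SD 0.18, adjusted p = 0.000437) and by 0.71 in AcB55 (SD 0.15, adjusted p = 1.12e-06). AcB61 was higher than AcB55 by 0.36 with Smad4 probe 142 (adjusted p = 0.0161), which failed with both probes averaged (0.25, adjusted p = 0.0853) and without AcB55 replicates 1 and 2 (0.31, adjusted p = 0.0612). Smad4 probe 12220 was -0.11 ± 0.21 in AcB61 (adjusted p = 0.321) and -0.26 ± 0.24 in AcB55 (adjusted p = 0.0365), the second of which failed without any 1 of AcB55 replicates 1, 2, 5 and 6. It was -0.13 without replicates 1 and 2 together (adjusted p = 0.426) and -0.39 without the arrays marked b (adjusted p = 0.00888). Neo1, a co-receptor of that pathway, was 0.25 ± 0.21 in AcB61 (adjusted p = 0.00855), failing without replicates 2, 6 and 8 (0.13, adjusted p = 0.202). Ireb2, Slc11a2 and Ncoa4 had no single-symbol probe.

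Of 9 probes of iron-sulphur cluster assembly, 2 rose and 0 fell in AcB61, and 1 rose and 1 fell in AcB55. Glrx5, a mitochondrial glutaredoxin that passes clusters on, rose by 0.89 ± 0.25 in AcB61 (adjusted p = 2.16e-06) and 0.44 ± 0.34 in AcB55 (adjusted p = 0.0049), and in AcB55 it failed without replicates 1 and 2 (0.25, adjusted p = 0.143). The difference of Glrx5 between strains, 0.45 (adjusted p = 0.0402), failed without any 1 of 8 arrays (AcB61 replicate 3, 5, 6 or 7, AcB55 replicate 3, 4, 5 or 6). It also failed for Glrx5 with a trended and robust spread (adjusted p = 0.0691), without AcB61 replicates 3, 5 and 7 (0.30, adjusted p = 0.132) and without the arrays marked b (0.36, adjusted p = 0.176). Nubp1, a scaffold of cytosolic clusters, was 0.04 ± 0.15 in AcB61 (adjusted p = 0.713) and fell by 0.29 in AcB55 (SD 0.20, adjusted p = 0.00641). Its strain difference of 0.33 (adjusted p = 0.0305) failed without AcB55 replicate 2, 4 or 6, without AcB61 replicates 3, 5 and 7 (0.25, adjusted p = 0.073) and without the arrays marked b (0.38, adjusted p = 0.0544). Cisd1, an outer mitochondrial membrane protein, was 0.18 ± 0.20 in AcB61 (adjusted p = 0.0425) and 0.18 ± 0.15 in AcB55 (adjusted p = 0.0849), and its AcB61 call failed without any 1 of 6 arrays (AcB61 replicate 1, 3, 6 or 7, AcB55 replicate 3 or 5). Without AcB61 replicates 3, 5 and 7, Cisd1 was 0.10 in AcB61 (adjusted p = 0.351), and its AcB55 value passed (adjusted p = 0.0426). The AcB61 call of Cisd1 also failed with array weights (0.13), a trended and robust spread, AcB61 fitted alone or the arrays marked b left out, at adjusted p of 0.0524 to 0.103, and its AcB55 call also passed with arrays on a common scale (0.19) and with similar title numbers as a block (0.18).

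In the Bach1 and Nrf2 list, 3 of 10 probes rose in each strain and 0 fell, and between the strains 2 were lower in AcB61, both of Nfe2l2. Gclc, the catalytic subunit for glutathione synthesis and a known Nrf2 target, rose by 0.48 ± 0.41 in AcB61 (adjusted p = 0.00224) and 0.61 ± 0.18 in AcB55 (adjusted p = 0.000885). Txnrd1 (0.08 in AcB61, 0.04 in AcB55) and all Me1 probes of the list (-0.02 to 0.09 in AcB61, -0.01 to 0.07 in AcB55) passed in neither strain. Gclc read 0.579, 0.920 and 1.24 on AcB61 replicates 3, 5 and 7, against 0.0751 to 0.421 on the other AcB61 arrays. Without those 3 arrays Gclc was 0.22 in AcB61 (adjusted p = 0.03) and lower than in AcB55 by -0.39 (adjusted p = 0.00716), against -0.13 with them (adjusted p = 0.636). Mafg, a small Maf partner of Bach1 and Nrf2, was 0.32 ± 0.30 in AcB61 (adjusted p = 0.00956) and 0.23 in AcB55 (adjusted p = 0.105), and the AcB61 value of Mafg was 0.50 without replicates 3, 5 and 7 (adjusted p = 0.00011) and failed without replicates 2, 6 and 8 (0.13, adjusted p = 0.249). Its AcB55 value passed without either set of AcB61 arrays (adjusted p of 0.0215 and 0.028), with AcB55 fitted alone (adjusted p = 0.0326) and with array weights (0.22, adjusted p = 0.0468). Of 4 other measured targets of the iron regulatory proteins, 1 rose in each strain. It was Alas2, with which erythroid haem synthesis begins, at 0.92 ± 0.23 in AcB61 (adjusted p = 9.48e-07) and 0.41 ± 0.33 in AcB55 (adjusted p = 0.00541), and the AcB55 call of Alas2 failed without replicates 1 and 2 (0.25, adjusted p = 0.143). AcB61 was higher than AcB55 by 0.51 for Alas2 (adjusted p = 0.0181), which failed without AcB55 replicate 6 (adjusted p = 0.0564) or the arrays marked b (0.36, adjusted p = 0.133).

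**Figure D5:**
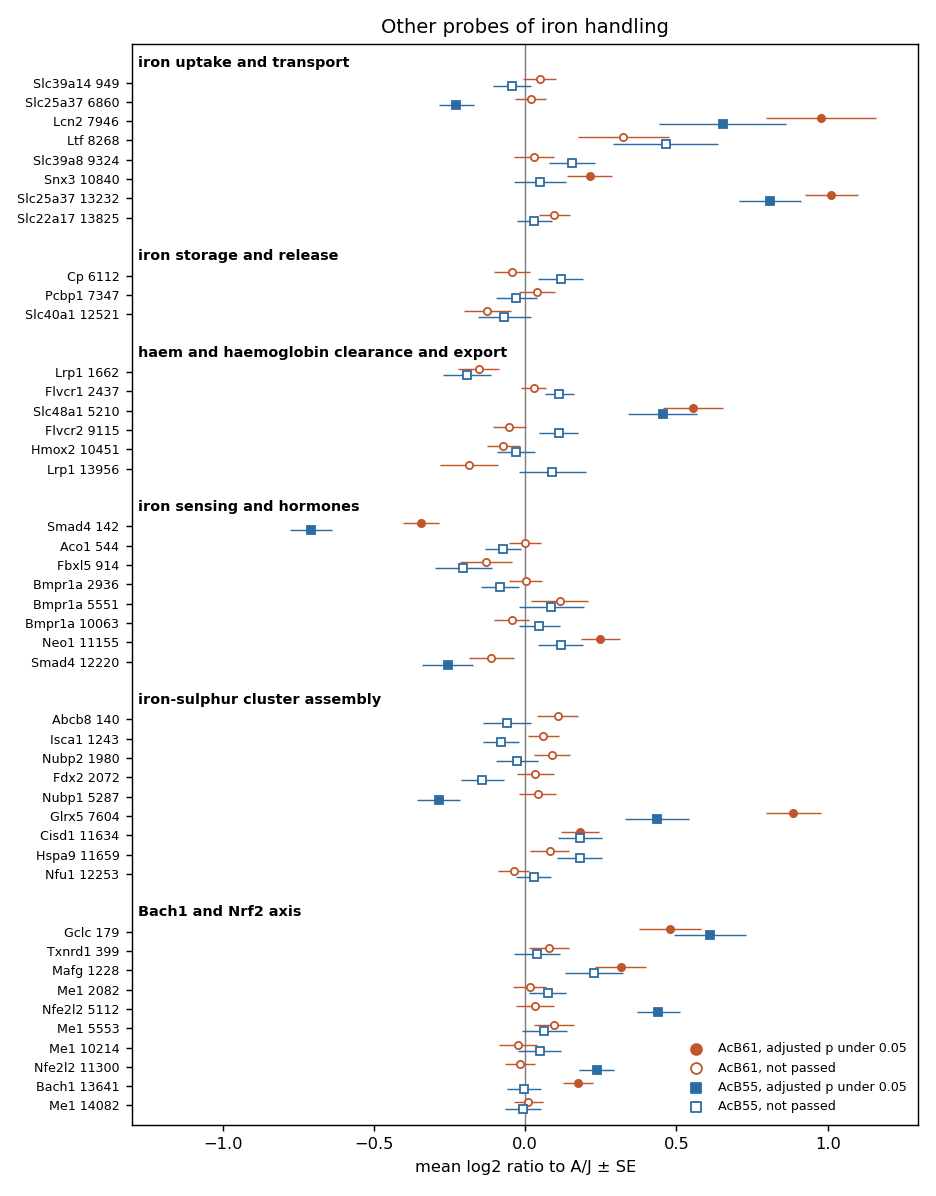
Mean log2 ratio to A/J (horizontal axis) of the 44 other iron handling probes, grouped by list, with the SE from the fit as bars, AcB61 above AcB55 in each row and open symbols where the test was not passed. Slc25a37 probe 13232, Lcn2 and Glrx5 are the highest in AcB61, and Smad4 probe 142 is the lowest in both strains.

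Some markers of the cells that use or recycle iron also differed from A/J. Of all probes, 10.5% rose and 12.9% fell in AcB61, and 10.3% rose and 11.1% fell in AcB55. Of 20 probes of dividing cells, 18 rose in AcB61 and 17 in AcB55, and the mean over the list was 0.414 to 0.793 on AcB61 arrays and 0.587 to 0.880 on AcB55 arrays. Of 13 probes of red cell precursors, 6 rose in each strain and 1 fell in AcB55, and the list mean was 0.277 to 0.634 on AcB61 arrays and 0.173 to 0.529 on AcB55 arrays. Slc4a1, the anion exchanger of red cells, was the highest of these, at 1.07 ± 0.23 in AcB61 and 1.28 ± 0.31 in AcB55 (n = 5). The 6 probes of Hba-a1, an alpha globin gene, passed in neither strain, with means of 0.04 to 0.05 in AcB61 and -0.01 to 0.01 in AcB55 (n = 5 or 6). Ermap, a red cell surface protein, was 0.02 ± 0.13 in AcB61 and fell by 0.24 in AcB55 (SD 0.12, adjusted p = 0.00626). Of 8 macrophage probes, 2 rose and 3 fell in AcB61 and 0 rose and 5 fell in AcB55, and the list mean was -0.342 to 0.093 on AcB61 arrays and -0.301 to -0.058 on AcB55 arrays. C1qa, a complement protein made by macrophages, was -0.24 ± 0.16 in AcB61 (adjusted p = 0.0902) and fell by 0.63 in AcB55 (SD 0.46, adjusted p = 0.000483). Ctsd, a lysosomal protease, rose in AcB61 with both probes, by 0.27 ± 0.34 and 0.30 ± 0.31, and averaged 0.20 ± 0.16 and 0.24 ± 0.18 in AcB55, where it did not pass. Spic, the transcription factor of red pulp macrophages, was -0.04 ± 0.25 in AcB61 and -0.10 ± 0.18 in AcB55 and passed in neither. The lymphocyte list was measured by Blnk alone, a B cell adaptor protein, which fell by 0.58 in AcB61 (SD 0.20, n = 6, adjusted p = 0.000268) and by 1.07 in AcB55 (SD 0.30, adjusted p = 7.47e-07). AcB61 was higher than AcB55 by 0.49 for Blnk (adjusted p = 0.0237). The part of these lists in the rise of Tfrc, of Hmox1 and of the ferritin chains was not tested.

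Across arrays, the genes most like Tfrc, after each strain's mean was removed and over 5796 genes and 14 arrays, were Kif23 (r = 0.95), Ncaph (0.87) and Incenp (0.87). Taken by probe, which was done after the probes were seen to differ, the nearest were Cdca2 (0.86), Tmem183a (0.83) and Plk1 (0.83) for probe 5643, and Spc25 (0.94), Uxt (0.92) and Smc3 (0.92) for probe 8221. No gene stood in both of these lists. The genes most like Hmox1, over its 13 arrays, were Rab6a (0.82), Tspan5 (0.81) and Psip1 (0.78). For Fth1 they were Tmem184b (0.84), Hip1r (0.81) and Gpx1 (0.81), and for Ftl1 Cds2 (0.82), Ermp1 (0.80) and Rrbp1 (0.78). The points of each correlation share arrays and the A/J channel.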

How the data were processed

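Spleen RNA of AcB61 (8 arrays) and AcB55 (6 arrays) was hybridised against A/J spleen RNA. Per the labels' protocols, total or poly(A) RNA was labelled with Cy3 or Cy5, scanned, quantified and imported into GeneSpring by the authors. The deposited values are log2 ratios of both channels, with base 2 taken because the base, the normalization and the dye of each channel are not given in the sources used here. Array medians were -0.021 to 0.0087, so no centring was added. Genes were named from the platform annotation, and 7849 of 14612 probes with a value had 1 symbol. R 4.3.3 with limma 3.58.1 (lmFit, eBayes) fitted 1 mean per strain over all 14 arrays, for the 14605 probes with at least 3 values per strain. Tests were two-sided with Benjamini-Hochberg adjustment, a threshold of 0.05, and intervals of 95%. The procedure was tested on simulated data with independent arrays, which does not cover the correlated sets of AcB61 arrays. Replicates are numbered in order of deposit. Figures used Python 3.11.15 and matplotlib 3.10.9. Members and lists were chosen with earlier results of these data known. Named are all member probes, up to 5 genes past the threshold per iron list, some fixed regulators, up to 3 markers per list, and the 3 genes most like each member. Hba-a1, Ermap, Ctsd and Spic were named after their values were seen. Alternatives covered probe averaging, centring, scaling, missing values, array weights, spread, exact tests and left-out arrays.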

Additional observations from a re-analysis of the deposited data

Results flagged for a closer look

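In 3 of 16 groups of member values 1 array stood far from the others, where chance gives about 1 in 20. Tfrc probe 5643 read 0.963 in AcB61 replicate 8, with the next array at 0.541. Tfrc probe 8221 read 0.986 in AcB55 replicate 2, with the next at 0.436. Ftl1 probe 2207 read 0.487 in AcB61 replicate 6, with the next at 0.148. Both Tfrc arrays are the ones whose probe order went against the rest of their strain.

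The ratio to A/J differed between the strains for 3 member probes. AcB61 minus AcB55 was -0.47 with Tfrc probe 5643, 0.41 with Tfrc probe 8221 and -0.79 with Hmox1. The difference of the 2 Tfrc probes, as probe 5643 minus probe 8221, was lower in AcB61 by -0.88.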

How the results depend on the processing

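Of 756 alternative values for the members and the counts of calls, 699 kept their side of the threshold or, for counts, stayed near the main count. A change of sign counted as kept where neither value passed. Leaving out an array of 1 strain cannot move the other strain's mean ratio to A/J. The Hmox1 difference between strains passed under every alternative run with limma. Averaging probes took the Tfrc difference to -0.030, which reverses probe 8221 and ends the call of both (adjusted p = 0.883). The difference of Tfrc probe 8221 also failed with a trended and robust spread (0.41, adjusted p = 0.0727), without the AcB55 arrays marked b (0.34, adjusted p = 0.165) and without AcB61 replicates 2, 6 and 8 (0.34, adjusted p = 0.0915). That of probe 5643 failed without AcB55 replicates 1 and 2 (-0.38, adjusted p = 0.0721), as did the AcB55 value of probe 8221 (0.27). The cause was not tested. Single arrays left out moved the Tfrc differences between -0.55 and -0.37 (probe 5643) and between 0.35 and 0.52 (probe 8221). They moved the AcB61 values of Ftl1 between 0.17 and 0.25 (probe 1844), 0.10 and 0.16 (2205), 0.14 and 0.19 (2206) and 0.12 and 0.18 (2207).

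In AcB61, Ftl1 probe 2205 passed with probes averaged (0.17), median centring (0.14), a common scale (0.17), array weights (0.20), exact tests (0.13), a block of similar title numbers (0.13), without AcB55 replicates 1 and 2 (0.13) and without AcB61 replicates 2, 6 and 8 (0.18). Probes 1844 and 2207 failed with AcB61 fitted alone (0.21 and 0.16), probe 1844 without replicates 3, 5 and 7 (0.17), and probes 2206 and 2207 without replicates 2, 6 and 8 (0.17 and 0.12). Between strains, array weights made Fth1 (0.27) and Ftl1 probe 1844 (0.26) pass. Ftl1 probe 1844 also passed without AcB61 replicates 2, 6 and 8 (0.33), and exact tests, which are not adjusted, passed Ftl1 probes 1844 (0.21) and 2206 (0.17). The AcB61 minus AcB55 count of 1785 calls became 3165 with array weights, 2936 with the block, 2879 without AcB61 replicates 2, 6 and 8, 3138 without replicates 3, 5 and 7 and 805 without the AcB55 arrays marked b. With 1 array left out it was 966 to 1898. The block and the sets of 3 AcB61 arrays were chosen after seeing the data. The block fit estimated a negative correlation within blocks, -0.15, so arrays of a block were no more alike than others. Slc25a37 probe 6860 in AcB55 turned to 0.29 with its probes averaged. No paired analysis was possible because the labels give the arrays no replicate numbers.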
